A study of Homo sapiens with 14 samples.

Results

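The exocyst is the complex that tethers vesicles to the plasma membrane, and its subunits are encoded by EXOC1 to EXOC8. All 8 genes were members, taken by gene symbol from the guide names, out of 18905 genes in a pooled CRISPR interference screen. Their guide RNAs numbered 40 out of 101880. EXOC3, EXOC5, EXOC7 and EXOC8, with 20 guides, lay in sublibrary H3, where a bright and a dim sort could be compared. EXOC1, EXOC2, EXOC4 and EXOC6, with the other 20 guides, lay in sublibrary H4, where the bottom library alone was used, so their guides have an abundance but no bright-to-dim ratio.

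The screen was run in HEK293 FLP-In cells, an established line from human embryonic kidney that takes up transgenes at a docking site. All cells carried the delta opioid receptor (DOR) fused to the peroxidase APEX2 under the promoter labelled pUBC, and the repressor dCas9-KRAB-BFP, in clonally expanded lines checked for knockdown. Guides were delivered at a multiplicity of infection of 0.2, and all cells had 3 days of puromycin at 0.75 µg/ml. All were assayed 8 days after guide delivery, following 90 minutes with 10 µM of the opioid agonist DADLE. None was left unstimulated, so a receptor effect cannot be told apart from another change in the peroxidase signal. The groups of H3 were the brightest quartile (top) and the dimmest quartile (bottom) after the Amplex UltraRed reaction on intact cells, with 1 library each. That reaction used 100 µM Amplex UltraRed and 50 µM hydrogen peroxide for 1 minute.

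The exocyst brings exocytic and recycling vesicles to the plasma membrane and holds them there until SNARE proteins fuse the membranes. It is built from a pair of subcomplexes, EXOC1 to EXOC4 and EXOC5 to EXOC8, so that EXOC3 belongs to one and the other compared subunits to the other. EXOC1 and EXOC7 bind phosphoinositides of the plasma membrane, EXOC2 and EXOC8 bind RAL GTPases, EXOC5 and EXOC6 connect the complex to ARF6 and RAB11, and EXOC3 contacts SNAREs. Receptors that return from endosomes to the cell surface are among the cargo of such vesicles.

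CRISPR interference acts near the start of a gene, and the windows from 250 bases before to 50 bases after each RefSeq start (build GRCh38.p14) showed what the starts of these genes have in common. The letters CGGAAGT, the core of an ETS factor motif, were found on either strand in a window of 8 of 8 exocyst genes, in 9 of their 11 windows. The windows of EXOC7 overlap and share 1 match. EXOC6 counts only through its window from base 92830858, while its windows from 92826581 and 92848270 held 0 matches. The motif stood in 6.83% of 35116 windows of the table and in a window of 11.7% of the 13958 library genes that it holds. It was picked after the exocyst windows had been seen, so this is a description, and a match is neither a binding site nor a cause. The 30 bases around the match nearest to the start are shown for the compared genes, read along the gene, with the match in capitals (ACTTCCG is its reverse complement).
EXOC3 (chr5:443165-443194, + strand): gcgcgctgtccACTTCCGgccgggaccccg
EXOC5 (chr14:57268881-57268910, - strand): cgcgcagttccACTTCCGgcgtatgaggcg
EXOC7 (chr17:76103758-76103787, - strand): gggaccaagagCGGAAGTgggtgtgacggg
EXOC8 (chr1:231337972-231338001, - strand): tccctcccctcACTTCCGcaatagctcatc

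In EXOC3 the match began on the start base itself, in EXOC5 6 bases and in EXOC7 11 bases past it, and in EXOC8 138 bases before it. The NRF1 motif GCGCANGCGC had 3 matches in the EXOC8 window and 1 in an EXOC7 window, and none in the windows of the other exocyst genes, against 5.78% of all windows with at least 1. TATAAA was in 0 of the 11 exocyst windows and in 11.5% of all windows. The guide sequences were not used here, and the positions in the guide names come without a stated build, so guides are not placed on these windows.

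The H3 libraries held 27478717 counts in the bottom and 31762301 in the top quartile, with medians of 1584 and 1831 counts per listed guide. A guide's value is log2(top/bottom), each count raised by 1 and divided by its library total, less the median over non-targeting guides in H3. Positive values mean that a guide was more frequent among bright cells. The 290 non-targeting guides of H3 had an SD of 0.215 on this scale, against 0.056 expected from read counting, and 5% of them lay below -0.35 and 5% above 0.35. The reads carry no molecular identifiers, so counting errors understate the error of a guide. There was 1 library per group and hence no replicate check. For each gene start, the guides were set against the non-targeting guides in a permutation test (two-sided), with Benjamini-Hochberg adjustment over 18116 starts. Such a p compares the 2 libraries of a single sort and holds no spread between sorts, and the guides of a gene share their target.

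Guides against EXOC3, EXOC7 and EXOC8 were on average more frequent in bright cells, and guides against EXOC5 were not. The means were 0.33 for EXOC3, 0.28 for EXOC7, 0.21 for EXOC8 and -0.12 for EXOC5, the log2 scale on which 1 is a doubling. Of these 4 genes, 1 passed the adjusted threshold of 0.05 toward the bright side, EXOC3, and 0 passed toward the dim side. In H3 as a whole 4.18% of 3323 gene starts were called toward the bright and 3.31% toward the dim side; over all compared sublibraries these shares were 2.38% and 1.53%. None of the 4 means reached 0.5 from 0 with 80% of guides on its side, a size that 2.11% of H3 starts reached toward the bright and 1.41% toward the dim side. The median of the 4 means was 0.25, against 0.01 for the starts of H3. 1 call among 4 genes is too few to set against these shares. At an unadjusted permutation p under 0.05 the 3 genes on the bright side passed, as 10.4% of H3 starts did on that side. edgeR called 0 of the 4, and 1.66% of H3 starts toward the bright side.

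**Figure D1:**
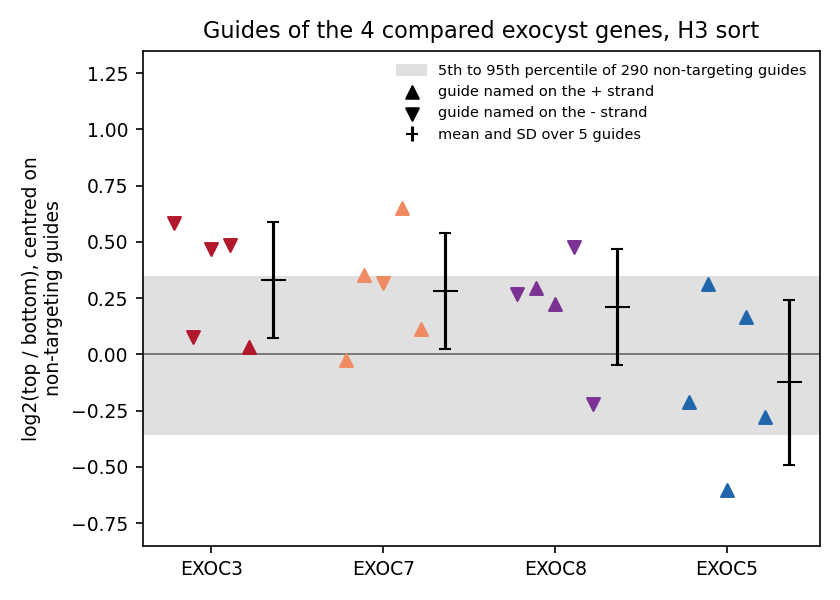
Centred log2(top/bottom) of each of the 5 guides (triangles, in order of position) for EXOC3, EXOC7, EXOC8 and EXOC5, with the mean and SD over guides and, in grey, the 5th to 95th percentile of 290 non-targeting guides of H3. 3 EXOC3 guides and 1 guide each of EXOC7 and EXOC8 stand clear above the grey band, a further EXOC7 guide lies on its upper edge, and 1 EXOC5 guide lies below it.

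EXOC3, the SNARE-contacting subunit known as SEC6 in yeast, had the highest mean of the 4. Its guide at position 443335 had 1867 counts in the bottom and 3212 in the top library, a ratio of 0.59 after scaling. The guides at 443413 and 443416 had 1817 and 1623 bottom counts against 2883 and 2608 top counts, with ratios of 0.47 and 0.49. The remaining guides were near 0, at 0.08 for position 443404 (2390 and 2892 counts) and 0.03 for position 443710 (2120 and 2482 counts).

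All 5 EXOC3 guides thus lay above 0, as the guides of 7.02% of H3 starts with 5 guides did, but they fell into a high trio and a low pair. Of the 290 non-targeting guides, 4 were higher than the highest EXOC3 guide and 123 were higher than the lowest. The guides at 443404, 443413 and 443416 lie on one strand within 12 bases, so their target sequences overlap. The first differed from the others by more than the counting SD of each, 0.040 to 0.046. Counting understates the error of a guide, and the SD over the non-targeting guides of H3 was 0.215. The difference between these guides was not tested.

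Over its guides EXOC3 had 0.33 ± 0.26 (SD, n = 5 guides), or 1.26-fold more of the bright than of the dim library. The permutation adjusted p was 0.0334, and 4.21% of H3 starts had a higher mean. The call ended when overlapping guides were averaged first, which left 3 values with a mean of 0.32 and a permutation adjusted p of 0.231. It also ended without the guide farthest from 0 in every gene (0.27, permutation adjusted p 0.0510), by the exact rank sum test (adjusted p 0.145) and with edgeR's quasi-likelihood test that blocked on the guide (0.35, adjusted p 0.184).

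**Figure D2:**
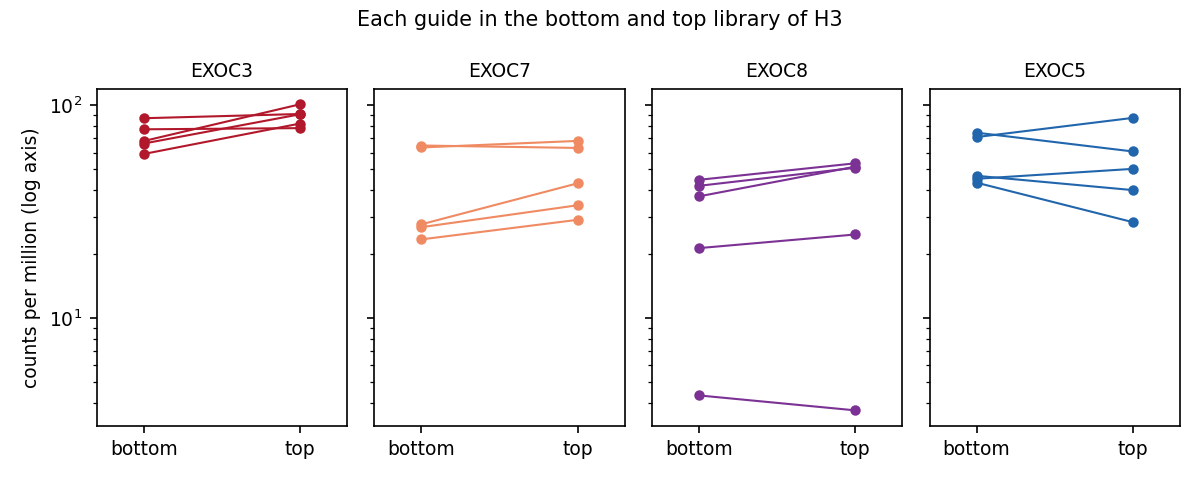
CPM, each count scaled to a common library total (log axis), of each guide in the bottom and top library of H3, 1 line per guide, before centring on non-targeting guides. The EXOC3 guides run between 59.1 and 101 CPM, the lowest EXOC8 guide is at 4.33 and 3.68, and lines of EXOC5 cross.

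EXOC7, the phosphoinositide-binding subunit EXO70, had 0.28 ± 0.26 (SD, n = 5 guides) with a permutation adjusted p of 0.0998, and was not called. Its guides fell into 3 high and 2 near 0, much as in EXOC3. The highest, at position 74099798, rose from 758 bottom to 1366 top counts, a ratio of 0.65. Guides at 74099754 and 74099789 had 735 and 644 bottom counts against 1077 and 920 top counts, at 0.35 and 0.32. The guides at 74099837 and 74099440 had 0.11 (1742 and 2161 counts) and -0.02 (1779 and 2003 counts). The high EXOC7 guides lay within 44 bases of each other, on both strands, and were also the 3 with the fewest counts.

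EXOC8, a RAL-binding subunit known as EXO84, had 0.21 ± 0.26 (SD, n = 5 guides), with a permutation adjusted p of 0.315. Here 4 of 5 guides stood close together, from 0.23 to 0.48. Their bottom counts ran from 586 to 1227 and their top counts from 785 to 1696. The fifth, at position 231473581, had 119 bottom and 117 top counts and a ratio of -0.22; its counting SD alone was 0.187. With only guides of at least 200 counts in each library the EXOC8 mean was 0.32, at a permutation adjusted p of 0.0667. At least 4 of 5 guides above 0, as in EXOC7 and EXOC8, were seen in 23.4% of H3 starts.

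EXOC5, known as SEC10 and placed next to EXOC6 in the complex, was the exception, at -0.12 ± 0.37 (SD, n = 5 guides) and a permutation adjusted p of 0.711. Its guides lay on both sides of 0. The guide at 57735310 fell from 1190 bottom to 897 top counts, a ratio of -0.60, and 288 of 290 non-targeting guides were higher. The guide at 57735209 went the other way, from 1949 to 2773 counts, a ratio of 0.31. The others had -0.28, -0.21 and 0.17. The SD over EXOC5 guides was above the median SD of H3 starts, 0.198, as were those of the other compared subunits. The differences between the 4 genes were not tested.

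**Figure D3:**
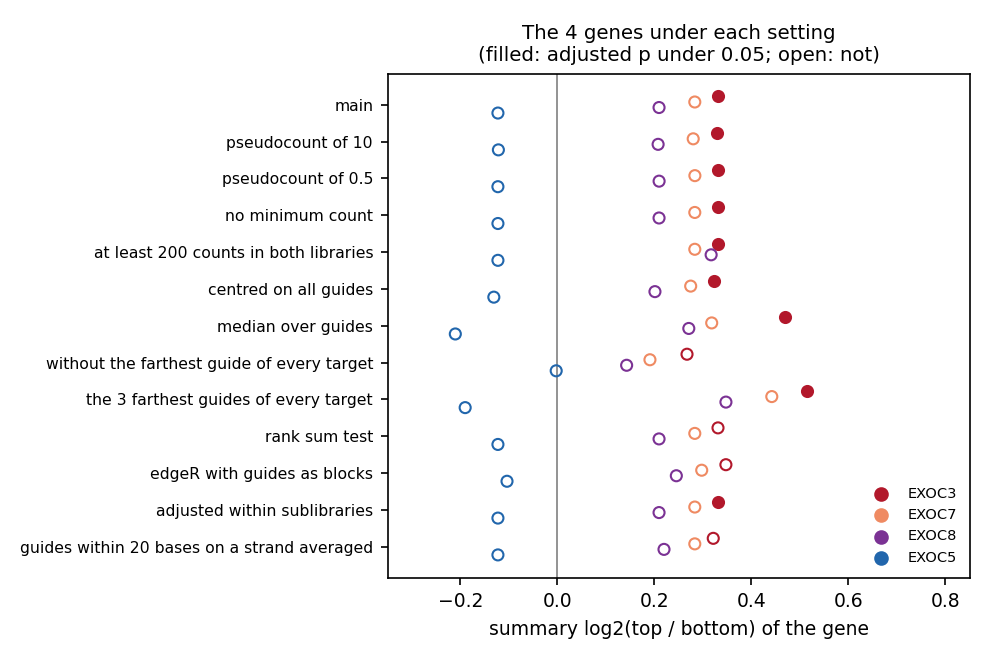
Summary log2(top/bottom) of EXOC3, EXOC7, EXOC8 and EXOC5 under the reported setting ("main", at the top) and 12 alternatives, filled where the adjusted p was under 0.05. EXOC3 is filled in 8 of the 12 alternatives, the other genes in 0, and no gene crosses 0.

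Over the 20 guides, 15 lay above 0 and 5 below, 75% against 51.7% of all targeting guides of H3. Above the 95th percentile of non-targeting guides lay 6 of the 20, against 8.56% of targeting guides. Below the 5th percentile lay 1, against 6.82% of targeting guides. These shares describe guides of 4 genes, several of them overlapping, and carry no test.

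Starts of other genes close to the exocyst starts did not pass. The nearest C5orf55 guide lay 152 bases from an EXOC3 guide on chromosome 5, and the 5 C5orf55 guides had a mean of -0.00 ± 0.26 (SD, n = 5 guides; permutation adjusted p 0.995) in H7. SPRTN, a DNA repair protease gene on chromosome 1, had its nearest guide 426 bases from one for EXOC8 and a mean of -0.05 ± 0.13 (SD, n = 5 guides; permutation adjusted p 0.922) in H3. AP5M1 on chromosome 14 had its nearest guide 200 bases from an EXOC5 guide, but lay in H4 and has no ratio here. No guide position of an exocyst gene was listed under any of these neighbours.

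Abundance gives the second readout, and the only one for EXOC1, EXOC2, EXOC4 and EXOC6. It is the log2 count of a guide relative to the median non-targeting guide of the same library, and its spread is wide: 0.707 (SD) over the 290 non-targeting guides of the H3 bottom and 0.711 over the 250 of the H4 bottom library. The abundance of each guide before the cells were grown was not analysed here. A low value therefore cannot be told apart from a guide that was rare at the outset. The bottom count is also the denominator of the ratio, so a low bottom value on its own cannot be told apart from guides shifted to the bright quartile. For the H3 genes the top library is therefore given beside it. For the H4 genes the top library that would show such a shift was not used.

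EXOC8 guides had the lowest mean of the 8 genes, -1.33 ± 1.41 in the H3 bottom library (SD, n = 5 guides), and 0.692% of H3 starts were lower. In the H3 top library EXOC8 had -1.10 ± 1.65, with 0.782% of starts lower, and from both libraries summed -1.20 ± 1.54, with 0.451% lower. In the bottom library the guide with 119 counts, at -3.74, was below every non-targeting guide, and the other 4 lay between -1.44 and -0.37. Without that guide the EXOC8 mean was -0.73, and its median guide, at -0.63, was above those of EXOC7 at -1.07 and EXOC6 at -1.06. EXOC7 guides had -0.64 ± 0.72, with 6.92% of starts lower, but in the H3 top library -0.34 ± 0.54, with 17.8% lower. Its 3 guides of high ratio had -1.30 to -1.07 and its other guides 0.13 and 0.16. EXOC5 and EXOC3 had -0.08 ± 0.38 and 0.29 ± 0.22 in the bottom library, and -0.19 ± 0.61 and 0.64 ± 0.14 in the top library (SD, n = 5 guides each), so the gene that passed the ratio test also had the highest mean abundance of the 4 in either library.

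In the H4 bottom library, EXOC6, which binds RAB11, had 365, 620, 654, 1639 and 1059 counts over its guides in order of position, a mean of -0.84 ± 0.82. EXOC4, a partner of EXOC3 in its subcomplex, had 988, 620, 1349, 294 and 1937 counts, a mean of -0.66 ± 1.06. Of 2410 starts in H4, 5.02% were lower than EXOC6 and 9.13% lower than EXOC4. Single guides reached far down in both, -1.90 in EXOC6 and -2.21 in EXOC4, while each also had a guide above 0.

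EXOC1, the phosphoinositide-binding subunit SEC3, had 1281, 775, 1830, 847 and 1357 counts, a mean of -0.23 ± 0.51. EXOC2, the RAL-binding subunit SEC5, had 1457, 1455, 842, 2451 and 1488 counts, a mean of 0.09 ± 0.55 (SD, n = 5 guides each). These lay on either side of the median of H4 starts, -0.13. The EXOC2 guides span 37 bases in all.

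**Figure D4:**
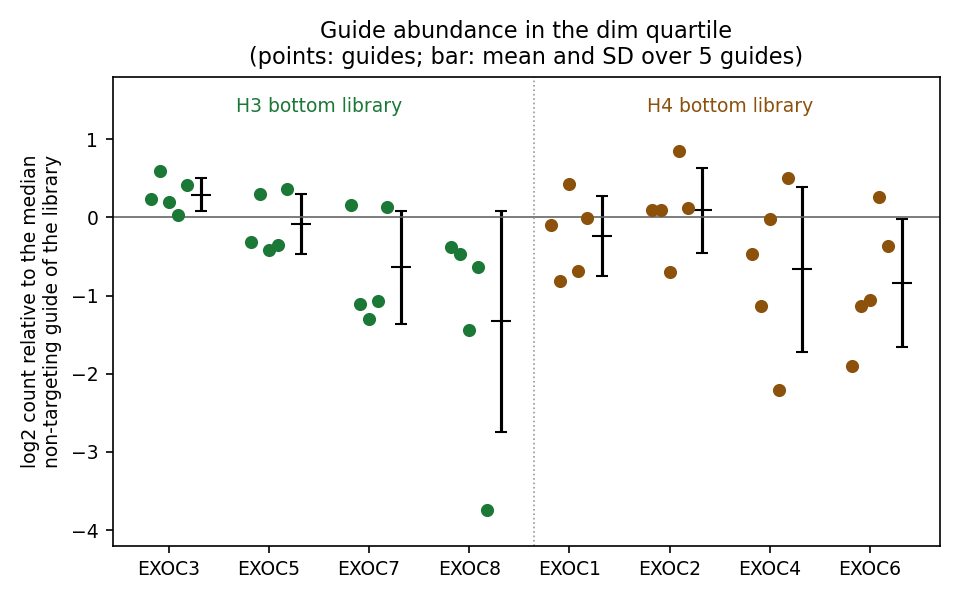
Log2 count of each guide relative to the median non-targeting guide of its library for the 8 exocyst genes, in the H3 bottom library (green) and the H4 bottom library (brown), with mean and SD over 5 guides. The lowest point is the EXOC8 guide at -3.74, and EXOC3 is the gene with all 5 guides above 0.

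The paralogs of exocyst subunits did not pass, although all 5 means were above 0. EXOC6B, a second form of EXOC6, had 0.06 ± 0.25, and of 5 paralogs compared 0 were called by permutation at an adjusted p of 0.05. Their median was 0.06, and the farthest were EXOC3L4 at 0.22 ± 0.36 and EXOC3L2 at 0.08 ± 0.26 (SD, n = 5 guides each). At unadjusted p under 0.05 the count was also 0, and also by edgeR.

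Of the GTPases and exchange factors that bind or recruit the exocyst, 12 were compared and 2 passed toward the bright side, 0 toward the dim. Over all compared starts the shares called were 2.38% and 1.53%, and in H3, the sublibrary of RAB10, 4.18% and 3.31%. At an unadjusted permutation p under 0.05 the count was 2, and by edgeR 0. CDC42, which recruits exocyst to sites of polarised growth, had 0.52 ± 0.22 (SD, n = 5 guides; permutation adjusted p 6.64e-04, the smallest the draws could give). RAB10, a RAB of exocytic vesicles, had 0.33 ± 0.29 (SD, n = 5 guides; permutation adjusted p 0.0399). The call of CDC42 ended in 1 of 12 alternatives, edgeR, and that of RAB10 in 6. The median was -0.01. RALA and RALB, whose products bind EXOC2 and EXOC8, had 0.04 ± 0.26 and -0.02 ± 0.15, and RAB11A, the partner of EXOC6, had 0.04 ± 0.26 (SD, n = 5 guides each). RAB8A was lowest at -0.14.

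Among recycling motors and RAB11 effectors 0 of 8 passed by the permutation test, with 0 at an unadjusted p under 0.05 and 0 by edgeR; the median was 0.02, and RAB35 and EHD1 were farthest at 0.12 and -0.08. Of 5 plasma membrane SNAREs, 1 passed, SNAP23, at 1.08 ± 1.17 (SD, n = 5 guides; permutation adjusted p 0.00159). The call of SNAP23 ended by rank sum and with edgeR. At an unadjusted permutation p under 0.05 the count in this list was 1, and by edgeR 0. Over all compared starts 2.38% were called toward the bright side. STX4, its syntaxin partner, had -0.09 ± 0.41, and the median was 0.08.

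Other multisubunit tethers served for comparison. Of 6 COG subunits, the tether of the Golgi, COG3 passed toward the dim side at -0.34 ± 0.19 (SD, n = 5 guides; permutation adjusted p 0.0220), 0 passed toward the bright side, and the median was -0.24. The call of COG3 ended in 3 of 12 alternatives: by the median, with the 3 farthest guides and with edgeR. At an unadjusted permutation p under 0.05 the count of COG subunits was 2, and by edgeR 0. Over all compared starts 1.53% were called toward the dim side, and 3.31% in H3, where COG3 was compared. All 6 COG means were below 0, COG6 and COG7 in H7 and the others in H3. Of the 4 exocyst means, all from H3, 3 were above 0. The median over all compared starts was 0.01, and the share of starts on each side of 0 is not given here. Of 7 HOPS and CORVET subunits, tethers of endosomes and lysosomes, 6 passed toward the bright side and the median was 0.80; VPS16, VPS41, VPS39 and VPS11 had 2.11, 1.19, 1.01 and 0.80. VPS41 is given at its first start; its second start had 0.00 ± 0.16 (SD, n = 5 guides; permutation adjusted p 0.995). Of these 6 calls those of VPS18 and VPS33A ended in 2 and 5 of the 12 alternatives, edgeR among them. In H3, where these subunits were compared, 4.18% of starts were called toward the bright side. VPS8, the CORVET subunit, had 0.29 and did not pass. The 3 GARP and EARP subunits lay between 0.03 and 0.05, with 0 called by permutation, 0 at an unadjusted p under 0.05 and 0 by edgeR. The HOPS subunits were compared in the same H3 libraries as the exocyst genes, and the differences between lists were not tested.

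**Figure D5:**
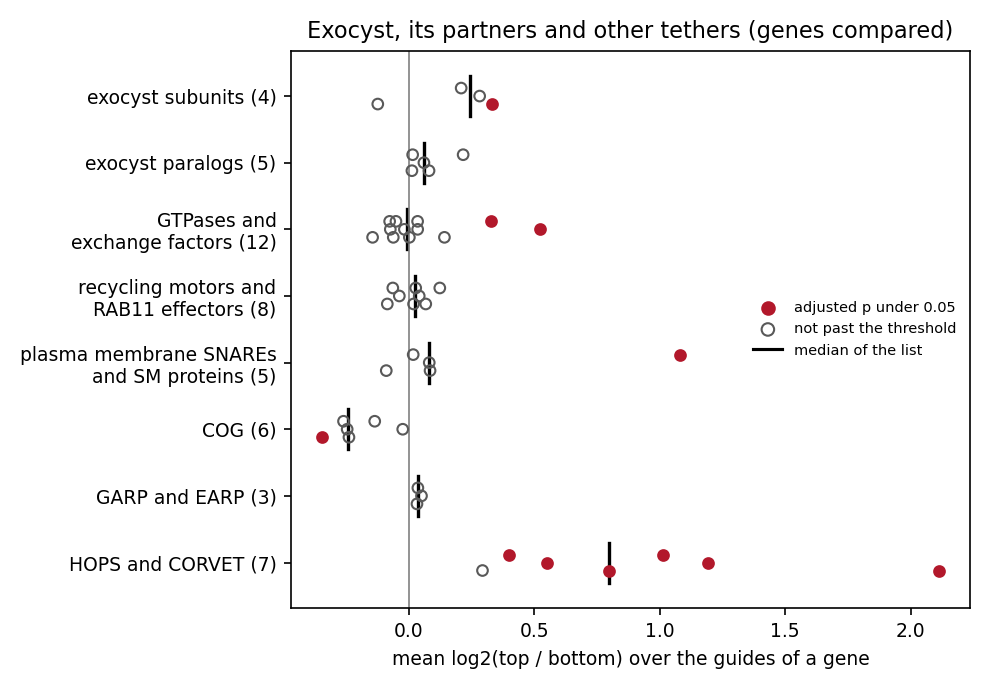
Mean log2(top/bottom) of each compared gene in the exocyst, its paralogs and partners, and other tethers, with the number compared in brackets; filled points passed an adjusted p of 0.05 and bars mark list medians. The exocyst median of 0.25 lies between those of COG (-0.24) and of HOPS and CORVET (0.80).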

How the data were processed

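The deposited values are raw counts per guide and library, which the authors did not normalize. The submitters' processing notes name Bowtie, without a version; the build of the guide positions was not stated. Samples were grouped by sublibrary and quartile from the titles, with 1 library per group, and the 12 libraries of 6 sublibraries were compared. Replicates were therefore absent. The permutation p-values set a gene's mean against the spread over mostly non-targeting guides. They make little use of the spread among the gene's own guides. The top table of H4, with 35 complete guides, was not used.

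Guides with 50 or more counts in 1 of the libraries were kept (91088 of 91463) and gene starts, the guides that share a symbol and a start label, needed 3 of them. Each mean was set against 100000 draws from its own and the non-targeting guides, two-sided, with Benjamini-Hochberg adjustment over all 18116 starts. edgeR 4.0.16 (R 4.3.3), on 17071 starts with 5 guides, was an alternative. A single guide has no residual degrees of freedom with 1 library per group. The edgeR test therefore took the 5 guides of a start together, blocked on the guide, which leaves residual degrees of freedom for each start. The scripts used Python 3.11.15 with numpy 2.4.6, and the tests were checked on simulated counts. The guides were amplified in 27 cycles.

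The exocyst genes and the other gene lists were chosen with earlier results of these data known. Named were the 8 exocyst genes, their neighbours with a guide within 1000 bases, and in each other list the up to 4 farthest members that passed or, where none passed, the 2 farthest; RALA, RALB, RAB11A, RAB8A, EXOC6B, STX4, VPS8, VPS18 and VPS33A were named after their values were seen. Promoter windows are RefSeq's; chromosomes were matched for 18814 of 18905 symbols.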

Additional observations from a re-analysis of the deposited data

How the results depend on the processing

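EXOC3 kept its direction under 11 alternatives and 1 more that was chosen after seeing the data, the averaging of guides within 20 bases on a strand. Its value ran from 0.27 to 0.51 and its adjusted p from 0.00975 to 0.231, and it passed in 8 of 12. Among these passes, the settings of pseudocount, minimum count and adjustment within sublibraries left its mean at 0.33. They thus repeat nearly the same value and are no separate support. It did not pass without the farthest guide (0.27), by rank sum (0.33), with edgeR (0.35) or with overlapping guides averaged (0.32), so that 0 exocyst genes were then called toward the bright side. With the 3 guides farthest from 0, 1 exocyst gene, EXOC3, passed the size of 0.5. Those guides are picked by the size of their ratios, which tends to enlarge a mean. The share of all starts past 0.5 in this setting is not given here, so no conclusion is drawn from it. EXOC7, EXOC8 and EXOC5 passed in 0 of 12, with ranges of 0.19 to 0.44, 0.14 to 0.35 and -0.21 to -0.00. Leaving out each guide in turn, a value with no test, gave 0.27 to 0.41 for EXOC3, 0.19 to 0.36 for EXOC7, 0.14 to 0.32 for EXOC8 and -0.23 to -0.00 for EXOC5. Over all starts 710 were called, and 244 with edgeR, which tested 17071 starts in place of 18116. The abundance of EXOC3 guides was 0.49 from both H3 libraries, 0.29 from the bottom and 0.64 from the top library alone; for EXOC7 these were -0.47, -0.64 and -0.34. No paired analysis was possible because the labels name no repeated sort, so no replicates can be paired; the top and bottom libraries of the 1 sort were compared guide by guide throughout. The causes of these changes were not tested.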

Other observations

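The 20 exocyst guides of H3 differed by the strand in their names. The 8 guides on the minus strand had a median log2(top/bottom) of 0.39 and the 12 on the plus strand 0.14, and all 5 guides against EXOC5, the gene with a mean below 0, were on the plus strand. Strand and gene cannot be told apart in so few guides.

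SNAP23, whose product pairs with STX4 in fusion at the plasma membrane, had 3 guides between 1.83 and 2.07, all at positions 42787858 to 42787881. Its guides at 42788282 and 42788285 had -0.21 and -0.20. The top library held 4396, 3969 and 3104 counts of the first 3 against 839, 852 and 699 in the bottom library.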
